A study of Mus musculus with 9 samples.

Results

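The cell-surface receptors for type I and type II interferon and the kinases, signal transducer and feedback inhibitor behind them were examined in irradiated BV2 cells, a line of immortalised mouse microglia. The 9 genes were chosen by symbol from a list, and the rule itself uses no measured value: the receptor chains Ifnar1, Ifnar2, Ifngr1 and Ifngr2, the Janus kinases Jak1, Jak2 and Tyk2, the transducer Stat2 and the inhibitor Socs1. They were, however, chosen with earlier results of these data known. All 9 were among the 21951 genes of the count table, and all 9 passed the filter on low counts that left 11295 genes for testing. The study compared 3 groups of 3 libraries, all of wild-type BV2 cells, to ask what radiation changes and what a steroid given beforehand does to it. Control cells received the vehicle, 20% hydroxypropyl-β-cyclodextrin (HP-β-CD), without irradiation. Irradiated cells received vehicle and then X-rays in 1 dose of 10 Gy. The triol-treated irradiated cells received 10 µM 5α-androst-3β, 5α, 6β-triol, which is a man-made steroid, 30 min ahead of the same dose. The labels give a pretreatment of 30 min for all 3 groups. For the triol group the sample labels name no vehicle, and no library had triol alone. The treatment labels of triol replicates 2 and 3 give other positions for the last hydroxyl than their titles do, so the compound in those libraries was taken from the titles. The sources used here do not give the time between irradiation and RNA extraction. BV2 is a single immortalised line, and the labels do not say whether replicates were separate cultures, so the p-values measure no more than the spread among these 9 libraries, which may be technical.

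Type I interferons, such as interferon-β, bind a receptor made of IFNAR1, which carries the kinase TYK2, and IFNAR2, which carries JAK1. These kinases phosphorylate STAT2, which works with IRF9 in the complex ISGF3 that binds interferon-stimulated response elements (ISRE) in DNA. Type II interferon, interferon-γ, binds IFNGR1, which carries JAK1, and IFNGR2, which carries JAK2, and its signal acts through gamma-activated sites (GAS) in DNA. SOCS1 is made in response to the signal and blocks the kinases. In microglia this pathway is known for the responses to viral infection, to DNA leaking into the cytosol and to ageing.

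Promoter windows from RefSeq, from 250 bases before to 50 bases after each gene's start on GRCm38.p6, were searched on both strands for a core of the ISRE, GAAANNGAA, and a core of the GAS, TTCNNNGAA. All 9 genes had 1 window each. The ISRE-like core was found in 2 of the 9 windows, those of Stat2 and Socs1, against 8.56% of all 32851 windows. The GAS core was found in 2 of the 9, those of Ifnar1 and Ifnar2, against 8.30% of all windows. No match of either core was present in the windows of Ifngr1, Ifngr2, Jak1, Jak2 or Tyk2. Parts of these 4 windows are shown because they are the ones with a match, and capitals mark the matched letters. For Stat2, Socs1 and Ifnar2 the 250 bases before the start are printed, without the 50 after it. The printed part of the Stat2 window (chr10:128270248-128270497, + strand) has its match at positions -221 to -213 from the start, read on the opposite strand. That of the Socs1 window (chr16:10785537-10785786, − strand) has overlapping matches at -83 to -75 and -77 to -69.
Stat2: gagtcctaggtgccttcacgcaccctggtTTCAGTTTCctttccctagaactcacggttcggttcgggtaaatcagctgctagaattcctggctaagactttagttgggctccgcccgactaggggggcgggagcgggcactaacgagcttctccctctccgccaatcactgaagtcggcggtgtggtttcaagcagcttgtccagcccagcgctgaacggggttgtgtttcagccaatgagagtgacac
Socs1: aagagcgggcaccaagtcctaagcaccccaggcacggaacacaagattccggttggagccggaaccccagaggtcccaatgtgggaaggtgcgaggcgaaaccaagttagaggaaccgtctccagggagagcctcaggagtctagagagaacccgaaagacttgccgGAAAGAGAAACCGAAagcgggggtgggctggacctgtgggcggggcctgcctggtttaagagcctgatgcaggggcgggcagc
The printed part of the Ifnar2 window (chr16:91372533-91372782, + strand) has its GAS core at -214 to -206, and it also holds the stricter form TTCCNGGAA, which was present in 1.15% of all windows. For Ifnar1 (chr16:91485197-91485226, + strand) only the stretch around the match is shown, which spans -5 to 4 across the start.
Ifnar2: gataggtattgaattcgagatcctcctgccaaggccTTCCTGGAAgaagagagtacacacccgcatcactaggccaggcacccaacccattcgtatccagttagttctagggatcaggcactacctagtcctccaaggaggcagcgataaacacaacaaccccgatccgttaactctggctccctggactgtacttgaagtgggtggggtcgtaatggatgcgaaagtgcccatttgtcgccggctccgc
Ifnar1: aggggcgggggcgTTCACGGAAggggcggg
Among genes named below as interferon targets, 9 of 15 with a window in the list of genes induced mainly through ISGF3 held the ISRE-like core, and 6 of 13 in the list of genes induced mainly by type II interferon held the GAS core. The GAS core was also held by 4 of the 15, and the ISRE-like core by 6 of the 13, so neither core was particular to 1 list. When a further A was required after the ISRE-like core, Stat2 and Socs1 still held it, against 3.44% of all windows. A match describes letters only and does not show that a factor binds there.

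**Figure D1:**
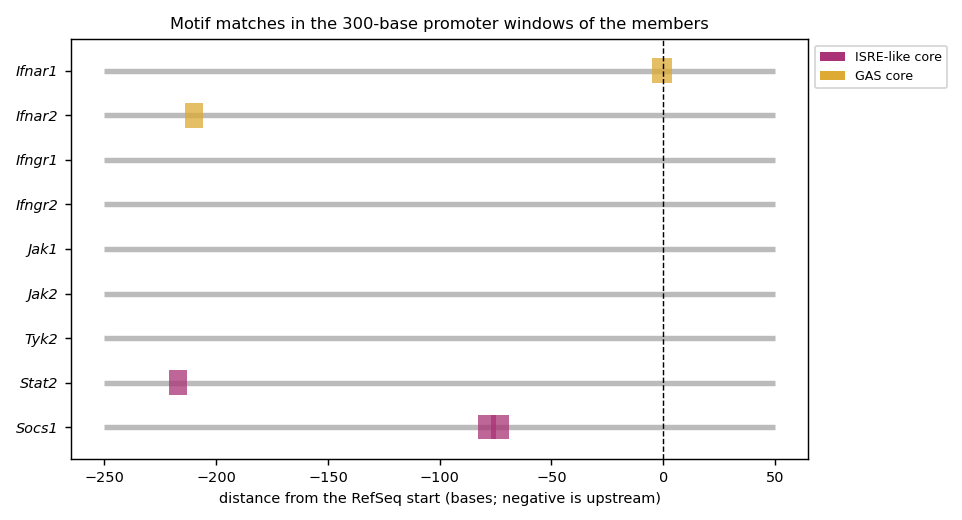
Matches of the ISRE-like core and the GAS core (coloured blocks) along the promoter windows of the 9 genes, plotted by distance in bases from the RefSeq start. Stat2 and Socs1 carried the ISRE-like core and Ifnar1 and Ifnar2 the GAS core, and the other 5 windows carried neither.

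Libraries held 14118475 to 17705424 counts in control, 13879062 to 15192203 after irradiation and 17230866 to 18944051 in triol-treated irradiated cells. Of 14 microglia and macrophage markers, 13 had a mean per-million read count (CPM, after TMM scaling of the libraries) of at least 1, and C1qa was lower. Their summed per-million reads of the library total (RPM) ran from 3488 to 3697 in control, 2910 to 3023 after irradiation and 2916 to 2992 in triol-treated irradiated libraries. Summed markers of other cells were far lower. In the same order of groups, 7 neuron markers summed to 16.7 to 18.6, 20.9 to 22.7 and 23.2 to 24.2 RPM, and 6 endothelial markers to 46.0 to 55.6, 61.1 to 69.8 and 66.0 to 77.2 RPM. Most of these reads were of 1 gene each, Syn1 (neuron) and Vwf (endothelial). In control no other marker of these lists had a mean CPM of 1 or more. The sums of 7 astrocyte markers were 0.450 to 0.992, 2.04 to 2.35 and 1.68 to 2.53 RPM, and those of 6 fibroblast markers 0 to 0.113, 0.527 to 0.760 and 1.10 to 2.11 RPM. Aqp4 (astrocyte), Olig2 (oligodendrocyte), Cldn5 (endothelial cell), Cd3e and Ms4a1 (lymphocytes) were at 0 in all 9 libraries. In bulk RNA, fewer cells of a type and less RNA per cell cannot be told apart, and the part of these shifts in the results below was not tested.

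In control cells the 9 genes spanned a wide range of levels. Per kilobase of exon, Ifngr2 was the most abundant of the 9 at 48.2 CPM per kb, followed by Jak1 at 40.1 and Ifnar1 at 23.5. Ifngr1 at 19.4 and Ifnar2 at 18.2 came next, then Jak2 at 9.52. Stat2 at 5.22 and Tyk2 at 4.91 CPM per kb overlapped in their libraries, and every other neighbouring pair in this order was separated. Socs1, at 0.192 CPM per kb, was the lowest and was read only 8 to 10 times per control library. After irradiation Ifngr2 (42.5) and Jak1 (42.1) overlapped, and Ifnar1 (18.95), Ifngr1 (17.8) and Ifnar2 (17.3) overlapped with their neighbours. Stat2, at 6.78 CPM per kb, then stood clear of Tyk2 at 4.19. In triol-treated irradiated cells Jak1 (41.6) and Ifngr2 (41.2) overlapped, as did Ifnar1 (18.7), Ifnar2 (18.1) and Ifngr1 (17.4) with their neighbours.

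Irradiation was followed by less Ifnar1, Ifngr2 and Tyk2 mRNA and more Stat2 mRNA, while the other 5 genes did not pass the test. Levels that follow are CPM after TMM scaling, listed for replicates 1, 2 and 3, and adjusted p-values come from edgeR's quasi-likelihood test over all 11295 genes. Of the 9 genes, 4 passed, against 44.3% of all tested genes, so the share of the 9 was close to that of all genes. The 1 that rose compares with 22.1% of all genes higher, and the 3 that fell with 22.2% lower. For 8 of the 9 the libraries of both groups were fully separated, against 50.7% of all genes. These 8 include Socs1, which passed the filter on low counts only through irradiated libraries. The median log2 fold change was -0.07 over the 9 and 0.0067 over all tested genes.

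Ifnar1 (chr16:91485238-91507441, + strand), the type I receptor chain that carries TYK2, was at 141, 145 and 132 CPM in control, 106, 114 and 118 after irradiation and 112, 114 and 107 in triol-treated irradiated libraries. All 6 irradiated libraries lay below all 3 controls. The log2 fold change on irradiation was -0.31 (SE 0.04, adjusted p = 1.6e-07), and the 95% interval ran from a change of -24.0% to -14.2%. Its partner Ifnar2 (chr16:91372783-91405589, + strand), which carries JAK1, was at 61.1, 61.0 and 60.1 CPM in control and 60.9, 53.1 and 58.9 in irradiated libraries. Those groups overlapped, and the log2 fold change of -0.07 did not pass (adjusted p = 0.292). Of the exonic bases of Ifnar2, 9.46% also lie in Gm21970 on the same strand, which had 0 reads in every library. The effect of this overlap on the counts of Ifnar2 was not tested.

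Ifngr2 (chr16:91547072-91565623, + strand), the interferon-γ receptor chain that carries JAK2, was at 183, 183 and 179 CPM in control and 165, 159 and 156 in irradiated libraries. All irradiated libraries were lower than all controls, with a log2 fold change of -0.18 (SE 0.04, adjusted p = 5.5e-05). Ifngr1 (chr10:19591949-19610229, + strand), the ligand-binding chain, was at 54.9, 55.8 and 54.7 CPM in control and 50.1, 53.4 and 48.7 in irradiated libraries. Its groups did not overlap, but the log2 fold change of -0.12 did not pass (adjusted p = 0.067). Without irradiated replicate 2, the highest of its group, the value was -0.17 and passed (adjusted p = 0.0291).

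Ifnar2, Ifnar1 and Ifngr2 lie in that order along chromosome 16, with Il10rb, a chain of the interleukin-10 receptor, between Ifnar2 and Ifnar1. The gap from Ifnar2 to Il10rb is 574 bases, from Il10rb to Ifnar1 59403 bases and from Ifnar1 to Ifngr2 39630 bases. Il10rb, looked at for its place and chosen after its values were seen, had a log2 fold change of -0.23 on irradiation (adjusted p = 5.1e-05). Of these 4 neighbours, Ifnar1, Ifngr2 and Il10rb fell and Ifnar2 did not pass the test. Of the exonic bases of Il10rb, 14.9% lie in Gm21970, and the effect of this overlap was not tested either.

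Tyk2 (chr9:21104068-21131243, − strand), the kinase on IFNAR1, was at 34.7, 35.3 and 31.0 CPM in control and 29.5, 29.7 and 27.1 in irradiated libraries. The groups did not overlap, and the log2 fold change was -0.23 (SE 0.07, adjusted p = 0.0094). The call was lost without control replicate 2 (adjusted p = 0.0624) or without irradiated replicate 3 (adjusted p = 0.0618). Of the exonic bases of Tyk2, 8.07% face 1700084C06Rik on the opposite strand, and the sources used here do not give the strand setting of the counting. Jak1 (chr4:101152367-101265282, − strand), shared by both receptors, was at 297, 291 and 281 CPM in control and 298, 302 and 313 in irradiated libraries, with a log2 fold change of 0.07 (adjusted p = 0.068). Jak2 (chr19:29251828-29313080, + strand), the kinase on IFNGR2, was at 45.2, 49.2 and 49.3 CPM in control and 49.8, 52.4 and 53.0 in irradiated libraries, with a log2 fold change of 0.11 (adjusted p = 0.118). For both kinases every irradiated library was above every control, and neither difference passed the threshold. With upper quartile scaling in place of TMM they passed, at 0.10 for Jak1 (adjusted p = 0.0101) and 0.14 for Jak2 (adjusted p = 0.0457).

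Stat2 (chr10:128270559-128292849, + strand), the ISGF3 subunit whose promoter window holds an ISRE-like core, was at 29.1, 30.7 and 32.9 CPM in control, 45.7, 37.1 and 37.6 after irradiation and 44.9, 47.9 and 43.8 in triol-treated irradiated libraries. Every irradiated library exceeded every control, and irradiated replicate 1 was the highest of its group. The log2 fold change on irradiation was 0.38 (SE 0.07, adjusted p = 3.8e-05).

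Socs1 (chr16:10782240-10785536, − strand), the feedback inhibitor, was read 8, 10 and 8 times in control, 21, 14 and 10 times after irradiation and 9, 10 and 21 times in triol-treated irradiated libraries. In CPM this was 0.577, 0.573 and 0.521, then 1.44, 0.999 and 0.653, then 0.520, 0.569 and 1.10. Irradiated libraries were above the controls in CPM, while triol replicates 1 and 2 lay below the highest control. The log2 fold change on irradiation of 0.87 had a 95% interval of 0.03 to 1.72 and did not pass (adjusted p = 0.088). Each control library lay below the filter's minimum of 10 reads at the median library size. Socs1 thus entered the test only through irradiated libraries, with or without triol, and its fold changes are a description. Without irradiated replicate 3 the value was 1.12 and passed (adjusted p = 0.0438).

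**Figure D2:**
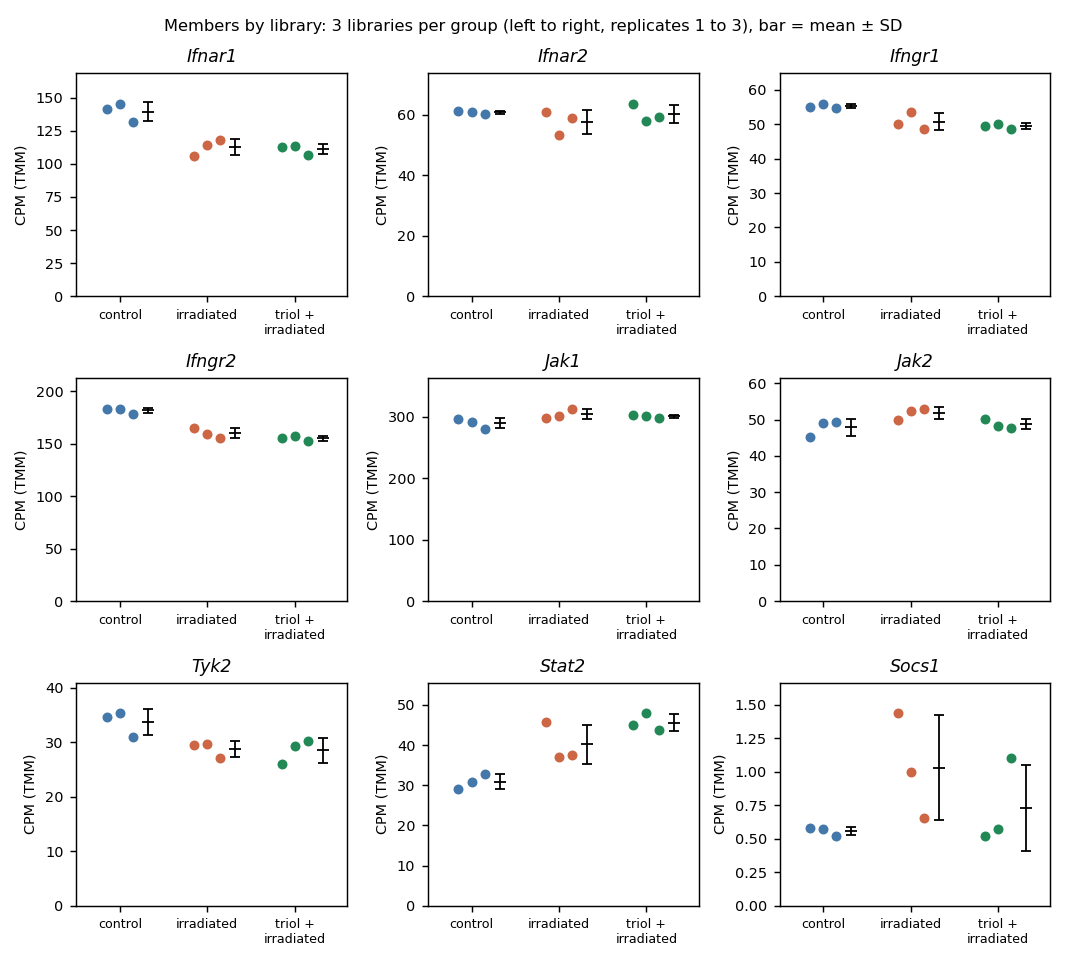
CPM after TMM scaling of each gene in each of the 9 libraries (points) with the group mean and SD (bars), and each vertical axis starting at 0. Ifnar1 and Ifngr2 were lower and Stat2 higher in all 6 irradiated libraries than in all 3 controls, and Socs1 did not exceed 1.44 CPM in any library.

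The 2 chains of a receptor, and a pair of kinases, were also set against each other within each library, where library scaling cancels. These 3 pairs were chosen after the values were seen, so their ratios are given as a description, with no test. Ifnar1 to Ifnar2, per kilobase of exon, had a ratio of 1.29 ± 0.05 (SD, n = 3) in control, 1.10 ± 0.11 after irradiation and 1.03 ± 0.06 in triol-treated irradiated libraries. All 6 irradiated libraries lay below the 3 controls, and the ratio over them was 0.827 times that of control. Ifngr2 to Ifngr1 had a ratio of 2.49 in control, 2.39 after irradiation and 2.37 in triol-treated irradiated libraries, and irradiated replicate 1 lay within the range of the controls. Tyk2 to Jak1 was 0.122, 0.0996 and 0.0998, with all 6 irradiated libraries below the 3 controls and a ratio 0.814 times that of control.

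**Figure D3:**
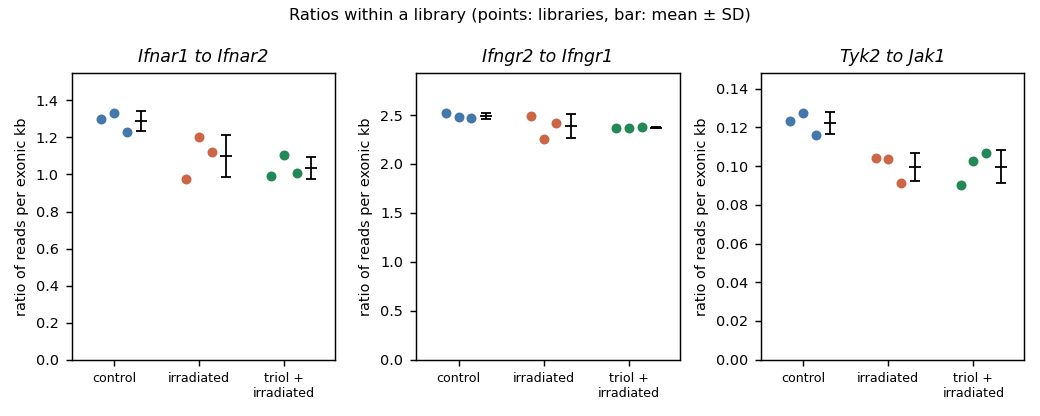
Ratio of reads per exonic kb of each pair of genes in each library (points), with group mean and SD (bars). The Ifnar1 to Ifnar2 and Tyk2 to Jak1 ratios were lower in the 6 irradiated libraries than in the 3 controls.

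The other genes of the pathway were compared on irradiation by their role, in lists drawn up with earlier results of these data known. Among 7 other JAK, STAT and ISGF3 genes, 6 were tested, 2 rose and 1 fell, with a median log2 fold change of -0.07, and the share that passed was close to the 44.3% of all genes. Irf9, the DNA-binding subunit of ISGF3, rose by 0.56 on the log2 scale. Stat3, which serves the interleukin-6 family, rose by 0.12 (adjusted p = 0.0127, up to 0.0759 without single libraries: control replicate 1 or irradiated replicate 3), and Stat6, which serves interleukin-4, fell by 0.25. Irf9 and Stat2, which work together in ISGF3, thus both rose. Of 18 negative regulators, 1 rose and 7 fell, with a median of -0.08, against 22.1% of all genes higher and 22.2% lower. The share that passed in either direction was again close to the 44.3% of all genes. Usp18, an interferon-induced inhibitor that acts at IFNAR2 and is also on the ISGF3 list, rose by 1.55. The phosphatases Ptpn1 (-0.41), Ptpn6 (-0.32) and Ptprc (-0.29) and the inhibitor Socs3 (-0.40) fell.

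Of 32 other receptor chains that signal through Janus kinases, 18 were tested, 5 rose and 7 fell, with a median of -0.12. The largest changes were in Il10ra (-0.64), Il4ra (0.53), Il15ra (0.50), Csf2ra (-0.46) and Il12rb1 (0.45), chains of receptors for interleukins and for the growth factor GM-CSF. Over all tested genes, 22.1% were higher and 22.2% lower.

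Downstream, all 19 tested of 20 genes induced mainly through ISGF3 rose, with a median log2 fold change of 1.89, against 0.0067 for all genes tested. Like the other lists, this one was drawn up with earlier results of these data known, so the count is a description. It includes Ifi44, which passed the filter on low counts only through irradiated libraries, with or without triol. The largest changes after Ifi44 were those of Ifit1 (3.08), Mx1 (2.89), Rsad2 (2.83) and Isg15 (2.77), all antiviral effectors. Ifi44 was read 1, 0 and 1 times in control and 20, 9 and 7 times in irradiated libraries, a ratio of 19.6 (exact 95% interval 5.04 to 168, counting error only). Of 15 genes induced mainly by type II interferon, which include Socs1, 13 were tested, 10 rose and 2 fell, with a median of 0.75. The shares over all tested genes were 22.1% higher and 22.2% lower. The guanylate-binding proteins Gbp5 (3.65), Gbp3 (2.56) and Gbp2 (2.27), Nos2 (1.79), which makes nitric oxide, and Tap1 (0.83), a peptide transporter for antigen presentation, rose most. Gbp5 was thinly read in control, with 4, 2 and 0 reads, and had 30, 18 and 27 after irradiation. It too passed the filter only through irradiated libraries. Nos2, with 15, 16 and 7 reads in control, did not meet the filter through the controls alone. Irf8 (-0.43), a macrophage transcription factor, and Socs3 (-0.40), which is also counted among the negative regulators above, fell. Ifng, the gene of type II interferon itself, had 0 reads in all 9 libraries. Whether any interferon lay behind these changes, and which, was not tested. For comparison, the log2 fold changes of the 4 receptor chains lay between -0.31 and -0.07.

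**Figure D4:**
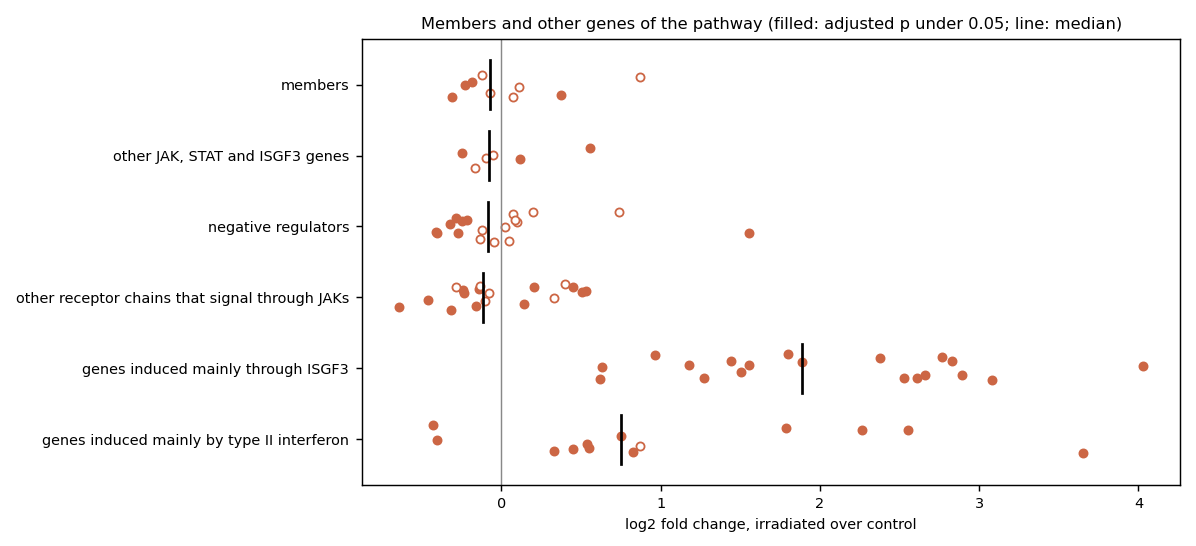
Log2 fold change of irradiated over control for the 9 genes and 5 fixed lists of other pathway genes (points, filled where edgeR's adjusted p was under 0.05; vertical line, median). The 9 genes lay within 1 log2 unit of 0, whereas genes induced mainly through ISGF3 had a median of 1.89. The lists were drawn up with earlier results of these data known.

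The interferon genes themselves were almost unread. Of 21 ligand genes, 16 had 0 reads in every library and none could be tested. Ifnb1, chosen after its values were seen, had 0 reads in the 3 controls, 7, 6 and 4 after irradiation and 7, 6 and 7 in triol-treated irradiated libraries. Set against a floor of 3 counts over the control group, the observed reads were 6.17-fold higher after irradiation and 5.89-fold higher in triol-treated irradiated cells. Ifnab, also chosen after its values were seen, had 0 reads in controls. It had 3, 3 and 1 reads after irradiation and 3, 3 and 2 in triol-treated irradiated libraries. Against the same floor these were 2.54-fold and 2.36-fold higher. The floor allows for counting error in the controls only and not for that of the few treated reads, so these folds are not lower bounds.

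Triol given before irradiation was compared with irradiation alone. Of the 9 genes, 0 passed edgeR's test, against 0.106% of all genes. Of the 9, 1 (Stat2) had an unadjusted p under 0.05 in that test, against 865 of all 11295 genes. DESeq2 gave 3 of the 9 an adjusted p and called 0, and limma-voom called 0. The groups were fully separated in 0 of the 9, against 13.2% of all genes. The median log2 fold change was -0.02. Leaving out Socs1, the 95% intervals of the other 8 ran from -13.0% to 24.6%, so a change beyond those bounds lay outside every interval. Stat2 was 0.18 higher on the log2 scale (95% interval 0.04 to 0.32, unadjusted p = 0.0108, adjusted p = 0.458), and its irradiated replicate 1 at 45.7 CPM lay within the range of the triol-treated irradiated libraries. Of the 71 tested genes of the pathway lists, 0 were called by edgeR, by DESeq2 or by limma-voom. In edgeR 7 of the 71 had an unadjusted p under 0.05, against the same 865 of 11295 genes. DESeq2 gave an adjusted p to only 2374 genes in this comparison, so it could not call any list gene without one. Summed hepatocyte markers ran from 9.10 to 9.50 RPM in triol-treated irradiated from 0.922 to 2.90 RPM in irradiated and from 1.09 to 2.82 RPM in control libraries, and their part in these values was not tested.

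In triol-treated irradiated cells against control, 5 of the 9 passed, compared with 43.3% of all genes. Stat2 rose, against 21.5% of all genes higher, and Ifnar1, Ifngr1, Ifngr2 and Tyk2 fell, against 21.7% lower. Libraries did not overlap for 6 of the 9, against 51.1% of all genes. The log2 fold changes were 0.56 for Stat2 (adjusted p = 1.2e-08), -0.33 for Ifnar1 (adjusted p = 2.8e-08), -0.23 for Ifngr2 (adjusted p = 1.2e-06), -0.24 for Tyk2 (adjusted p = 0.0055) and -0.16 for Ifngr1 (adjusted p = 0.0151). Tyk2 was lost without triol replicate 1 (adjusted p = 0.0507). This comparison shares its controls with that of irradiation alone. Among the other pathway genes Irf9 (0.64) and Usp18 (1.58) rose and Stat6 (-0.24), Jak3 (-0.22) and Sh2b3 (-0.23) fell. Of the genes induced mainly through ISGF3 all 19 tested rose, with a median of 1.94, and of those induced mainly by type II interferon 10 rose and 2 fell, with a median of 0.59. Here too the lists were drawn up with earlier results of these data known. Their counts include Ifi44 and Gbp5, which passed the filter only through irradiated libraries.

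**Figure D5:**
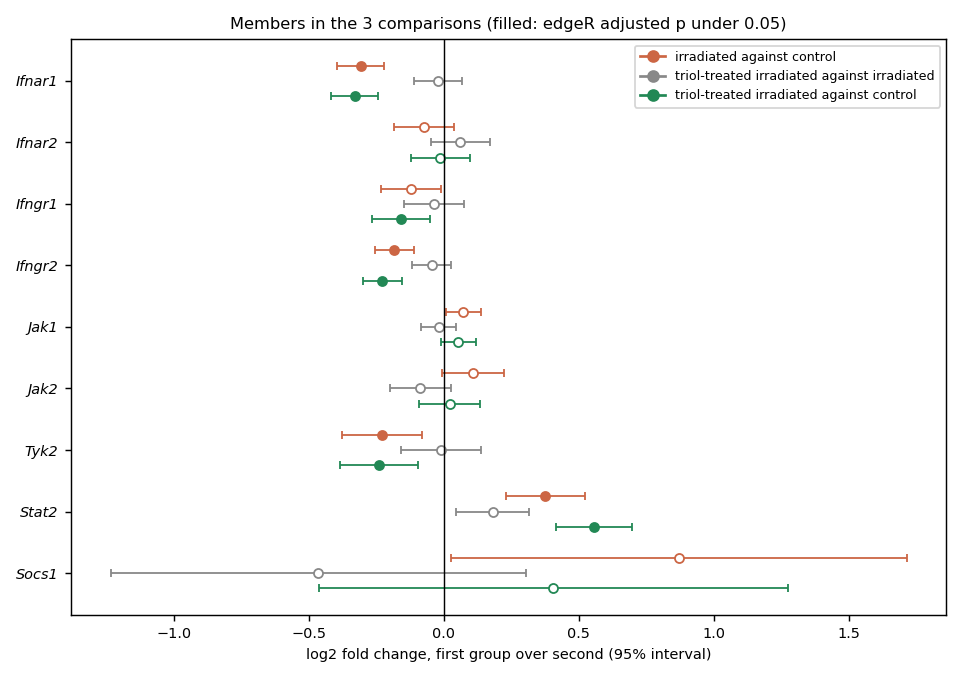
Log2 fold change with its 95% interval of each gene in the 3 comparisons, filled where edgeR's adjusted p was under 0.05. For triol-treated irradiated against irradiated cells all 9 circles are open, and Socs1 had the widest interval in each comparison.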

How the data were processed

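RNA was sequenced from 9 libraries of BV2 cells, 3 per group, with group and replicate number taken from each sample's title. The authors deposited whole-number counts of reads per gene, not normalised, with 1 column per library. Per the submitters' processing notes, these came from fastp 0.18.0, FastQC, STAR 2.7.1a and featureCounts of Subread 1.6.3 on GRCm38. The sources used here do not give the annotation release or strand setting. Coordinates, exon lengths and overlaps are from GENCODE M21 on GRCm38, which held all 21951 genes.

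Libraries of 13879062 to 18944051 counts were fitted together with edgeR 4.0.16 in R 4.3.3: filterByExpr, TMM, robust quasi-likelihood F tests with 6 residual degrees of freedom, two-sided, Benjamini-Hochberg over 11295 genes, threshold 0.05. The biological coefficient of variation was 3.18%. The code was tested on simulated data. CPM used TMM; RPM used total counts. Levels between genes were divided by the kilobases of merged exons. Ratios between genes were taken per exonic kilobase within each library and not tested. Alternatives were DESeq2 1.42.0, limma-voom (limma 3.58.1), upper quartile scaling, no filter, only the groups compared, a replicate block and each library left out. Although the rule for the 9 genes names only symbols, the members and lists were chosen with earlier results of these data known. All 9 genes are named, plus up to 5 genes per list and comparison with the largest absolute log2 fold change among those that passed. Genes of like pattern were to be named for members that passed on irradiation with a log2 fold change of 0.5 or more in size, and there were 0. Mx2, a gene of the ISGF3 list, was not analysed here. An item of the pathway lists is not reported here and was left out of the list counts.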

Additional observations from a re-analysis of the deposited data

How the results depend on the processing

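Of the 9 genes, the calls on irradiation of Ifnar1, Ifngr2 and Stat2 held under every alternative run, as did those of Ifnar1, Ifngr1, Ifngr2 and Stat2 in triol-treated irradiated cells against control. With upper quartile scaling Jak1 (0.10) and Jak2 (0.14) also passed on irradiation, which made 6 calls in place of 4. Over all 11295 genes that scaling gave a median log2 fold change of 0.036 in place of 0.0067. It called 2919 genes higher and 2116 lower, in place of 2498 and 2505. The same scaling turned the uncalled value of Ifnar2 in triol-treated irradiated cells against control to 0.0080. Leaving out each library in turn gave 3 to 5 calls of the 9 on irradiation, with log2 fold changes from -0.29 to -0.19 for Tyk2, -0.17 to -0.094 for Ifngr1 and 0.55 to 1.12 for Socs1. In triol-treated irradiated cells against control the same runs gave -0.31 to -0.19 for Tyk2, and uncalled values changed sign for Ifnar2 (-0.060 to 0.0079), Jak2 (-0.024 to 0.037) and Socs1 (-0.039 to 0.59). In triol-treated irradiated against irradiated cells, signs of uncalled values changed for Ifnar1 (-0.069 to 0.012), Jak1 (-0.038 to 0.0028) and Tyk2 (-0.060 to 0.047), and all alternatives called 0 of the 9. The cause of these shifts was not tested. The stricter GAS form left 1 of the 2 windows, because it admits fewer sequences. Same-numbered libraries did not deviate together (r from -0.055 to 0.059), and 4 of 9 libraries correlated best with their own number. These values showed no pairing by number but cannot exclude it, because the labels give only the number. With a replicate block the calls stayed at 4, 0 and 5 of the 9 in the 3 comparisons, and the list genes called at 52 on irradiation. Depth limits Socs1 and the interferon genes, which had few reads. On irradiation, Socs1 had a value in 5 of the 6 alternatives that kept every library of the groups compared.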
